A study of Mus musculus with 8 samples.

Results

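Serpins are a superfamily of proteins that mostly inhibit serine proteases, and their transcripts were compared between the hippocampus of young and of very old mice. The members are all genes whose symbol starts with Serpin, leaving out Serpina3n and Serping1, and they were found by matching the RefSeq accession of each array probe to a mouse gene. The report covers 55 such genes, measured by 67 probes, of 19751 genes named on the array in all. Of 66 serpin symbols in the RefSeq table, the 11 that no probe matched (among them Serpina1b, Serpina3g, Serpina3h, Serpina3i and Serpine3) were not analysed here. Wild type C57BL/6J mice without treatment were taken at 3 months (3M, 4 samples) or 29 months of age (29M, 4 samples). Per the paper, mice of the older age were bought already aged and then kept for some months in its holding rooms. RNA from the whole hippocampus, dissected by hand, was labelled with Cy3 and hybridised to 1 array per sample. All 8 samples share strain, genotype, tissue and label. The groups differ in age, and this history of supply and housing cannot be told apart from it.

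A serpin works as a suicide substrate. The protease cuts an exposed loop of the inhibitor, the loop inserts into the body of the serpin, and the protease is carried along and held in a distorted, covalently bound state. Clades are named by letter. Clade A holds mostly secreted inhibitors made by the liver, clade B holds inhibitors that stay inside the cell, and the smaller clades include antithrombin (C), heparin cofactor II (D), protease nexin (E), pigment epithelium-derived factor and antiplasmin (F), a collagen chaperone (H) and neuroserpin (I). In the brain, neuroserpin of neurons and protease nexin of glia are known for restraining tissue plasminogen activator and thrombin. The mouse carries several near-identical copies of Serpina1 and of Serpina3, each of which is 1 gene in humans, so that a probe for 1 copy can bind transcripts of another.

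The Serpina1 genes encode alpha-1-antitrypsin, the main plasma inhibitor of neutrophil elastase, and the largest differences among the serpin probes were theirs. Their promoters are shown as a description of the copies, and a link between promoter sequence and the age difference was not tested. The sequences are from RefSeq (GRCm38.p6), 250 bases before to 50 bases after the annotated start, written 5′ to 3′ on the gene's strand. Capitals mark matches to the motifs searched.
Serpina1d (chr12:103773584-103773883, minus strand): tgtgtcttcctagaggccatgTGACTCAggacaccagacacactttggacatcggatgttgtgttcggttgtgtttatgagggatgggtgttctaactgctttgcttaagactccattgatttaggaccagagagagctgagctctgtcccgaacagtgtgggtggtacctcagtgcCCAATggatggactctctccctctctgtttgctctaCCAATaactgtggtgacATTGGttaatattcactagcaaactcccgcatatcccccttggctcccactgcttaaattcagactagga
Serpina1a (chr12:103863570-103863869, minus strand): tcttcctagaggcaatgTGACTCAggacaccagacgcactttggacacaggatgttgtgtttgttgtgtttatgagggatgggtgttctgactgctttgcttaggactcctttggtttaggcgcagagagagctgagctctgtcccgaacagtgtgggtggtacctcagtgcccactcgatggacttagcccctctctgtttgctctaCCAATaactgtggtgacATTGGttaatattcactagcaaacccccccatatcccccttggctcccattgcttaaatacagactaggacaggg
Serpina1c (chr12:103904901-103905200, minus strand): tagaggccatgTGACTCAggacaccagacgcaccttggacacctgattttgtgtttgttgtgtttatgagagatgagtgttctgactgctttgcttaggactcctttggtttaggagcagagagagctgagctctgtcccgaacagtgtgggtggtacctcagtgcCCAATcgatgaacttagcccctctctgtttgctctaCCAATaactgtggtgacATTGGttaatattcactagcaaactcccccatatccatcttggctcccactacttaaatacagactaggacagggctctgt
Serpina1e (chr12:103956848-103957147, minus strand): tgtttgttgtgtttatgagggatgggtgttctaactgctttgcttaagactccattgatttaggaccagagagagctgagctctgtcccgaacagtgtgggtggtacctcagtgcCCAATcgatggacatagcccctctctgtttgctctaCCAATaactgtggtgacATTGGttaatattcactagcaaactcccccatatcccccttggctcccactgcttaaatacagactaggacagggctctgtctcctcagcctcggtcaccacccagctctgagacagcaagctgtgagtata
Serpina1f (chr12:103695480-103695779, minus strand): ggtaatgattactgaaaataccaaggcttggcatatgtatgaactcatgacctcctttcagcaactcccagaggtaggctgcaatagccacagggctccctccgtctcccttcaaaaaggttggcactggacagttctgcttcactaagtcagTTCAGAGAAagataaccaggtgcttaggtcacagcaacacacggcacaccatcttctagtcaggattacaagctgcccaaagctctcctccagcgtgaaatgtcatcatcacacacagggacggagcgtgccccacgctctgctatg

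Among Serpina1a, Serpina1c, Serpina1d and Serpina1e, the 6 pairs of promoters were between 91.7% and 96.2% identical over 238 to 295 aligned bases. Serpina1f aligned with these 4 over only 2 to 4 bases, and Serpina1b, which no probe matched, is not shown. All 4 share an uninterrupted run of 59 bases with an inverted pair of CCAAT boxes (capitals), which Serpina1f lacks:
Run shared by 4 promoters: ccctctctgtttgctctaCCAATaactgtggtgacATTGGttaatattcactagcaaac
Counted from the annotated start, this run begins 60 bases upstream in Serpina1a, 66 in Serpina1c, 55 in Serpina1d and 117 in Serpina1e. Motifs searched on both strands were the STAT site TTCNNNGAA, the interferon response element GAAANNGAA, the heat shock element GAANNTTC, the E-box CACGTG, the AP-1 site TGANTCA and the CCAAT box CCAAT. Serpina1a, Serpina1c and Serpina1d each hold 1 match to the AP-1 site, in the stretch TGACTCA near the left end, whereas this window of Serpina1e starts downstream of that stretch. CCAAT occurs in 2 places in Serpina1a and in 3 places in Serpina1c, Serpina1d and Serpina1e. The single capitalised stretch of Serpina1f is a match to the STAT site, and none of the matches printed overlaps a match to another motif. Of all 32851 promoters of this length, 7.81% hold the AP-1 site and 37.4% a CCAAT box, compared with 11 and 19 of the 56 promoters found for 47 of these serpin genes. The STAT site occurs in 8.3% of all promoters and in 9 serpin promoters, the interferon response element in 8.56% and 10, and the heat shock element in 7.86% and 6. No serpin promoter held the E-box, which 7.15% of all promoters hold. Some genes have 2 overlapping windows in these counts, and a match is a description of letters and not of a bound site.

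Values below are normalized log2 intensities, and a difference is the mean of the 29M arrays minus the mean of the 3M arrays with its standard error (SE). A probe was called at a Benjamini-Hochberg adjusted p under 0.1 over all 39408 probes tested in limma together with a difference of at least 0.5 (1.414-fold), and a gene was called when 1 of its probes was. Where a gene had several probes, the brightest stands for it and the others are given for the named genes where they differ in call or sign or in how the groups overlap. A probe was taken as above background where the scanner software marked its spot as well above the local background. This share was between 76.2% and 85.0% of the spots of an array, no spot was saturated, and 8 arrays limit the precision. The arrays lay on 3 slides, each of which held both ages. Slide 1 held 3M replicate 1 with 29M replicates 3 and 4, and slide 2 held replicate 2 of each age. Slide 3 held 3M replicates 3 and 4 with 29M replicate 1. A difference within a slide thus rests on 1 array of at least 1 age. The 3M replicate 1 array was the only one that the software had marked for evaluation. Neuron markers (10 genes) and hippocampal neuron markers (8 genes) were above background on all arrays and none was called. The medians of these lists were 0.01 and 0.05. Nrgn (-0.53, SE 0.14, adjusted p = 0.107) and Zbtb20 (-0.33, SE 0.13, adjusted p = 0.239) had all 29M arrays below all 3M arrays. Nrgn was called lower in 4 of 19 alternative ways of processing or sample selection. Nothing in the labels says that samples of a group shared animals, and p-values measure the spread between these samples.

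Of the 55 serpin genes, 5 rose at 29 months and none fell. The 5 are Serpina1a, Serpina1c, Serpina1d, Serpina1e and Serpinf2, with 7 of the 67 probes. Across the whole array, 1.25% of the probes and 1.84% of the genes were called higher, and 0.809% of the probes and 0.892% of the genes lower. At an unadjusted p under 0.05 in limma, 13 serpin probes were higher and 1 was lower, where over all probes 8.24% were higher and 8.68% lower. Every 29M array lay above every 3M array for 9 serpin probes and below for 1, where these shares were 5.52% and 5.54% over all probes. Without Serpina1a, Serpina1c, Serpina1d and Serpina1e, 60 probes remained and 1 of them was called. At that unadjusted p in limma, 6 of the 60 were higher and 1 was lower. For 3 of the 60 every 29M array lay above every 3M array, and for 1 below. The shares higher thus lay near those over all probes. The median difference over the serpin genes was 0.04, close to the 0.01 over all named genes, and without Serpina1a, Serpina1c, Serpina1d and Serpina1e it was 0.01. Of the 67 probes 33 were above background on all 8 arrays and 21 on none, and 16 genes had no probe above background on any array.

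**Figure D1:**
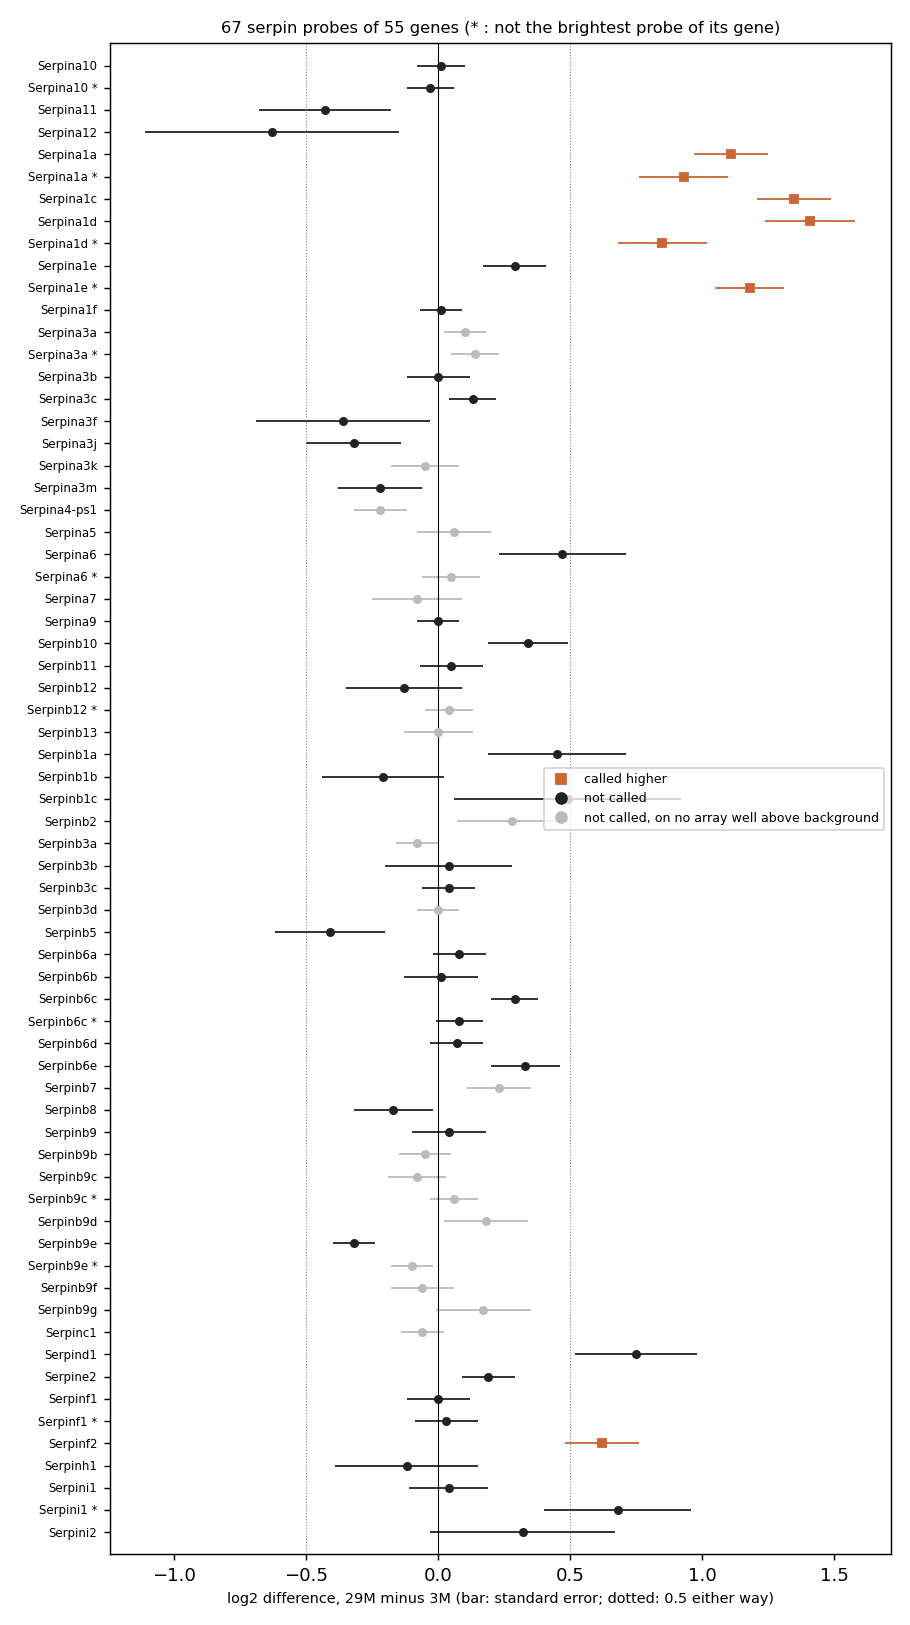
Difference between the ages (x axis, log2, 29M minus 3M, 4 arrays each) of the 67 serpin probes, ordered by clade and symbol, with the standard error as a bar. The 7 called probes (orange squares) are 6 of the Serpina1 family and that of Serpinf2, and all lie to the right of 0.5.

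Serpina1c showed the clearest difference. Its 3M arrays read 7.60, 7.65, 7.48 and 7.67, and its 29M arrays read 9.01, 9.11, 9.17 and 8.51, in replicate order. No array of 1 age reached the values of the other, and the difference was 1.35 (SE 0.14, adjusted p = 0.00355), or 2.55-fold. Within the 3 slides it was 1.24, 1.46 and 1.44.

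Serpina1d rose most on the log2 scale. At 3 months it read 6.14, 6.00, 5.90 and 6.24 and at 29 months 7.61, 7.64, 7.74 and 6.93, a difference of 1.41 (SE 0.17, adjusted p = 0.00691). The groups did not overlap, 1 of the 3M arrays was not above background, and the difference was between 1.06 and 2.03 over the alternatives. Its other probe lay in the background on all 4 arrays of the 3M group and above it on 3 of 4 at 29 months, with measured means of 5.08 and 5.92. Taken against the lowest signal that the arrays measured above background, the 29M level was at least 1.25-fold higher (adjusted p = 0.0458 for the measured difference), and that call held in 12 of 18 alternatives.

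Serpina1a read 7.56, 7.72, 7.67 and 7.64 at 3 months. At 29 months it read 8.78, 8.78, 9.11 and 8.36, a difference of 1.11 (SE 0.14, adjusted p = 0.00803). The groups stood apart, and within slides the difference held at 1.17, 1.06 and 1.12. A dimmer probe of the gene was also called, with a difference of 0.93 (SE 0.17, adjusted p = 0.037), though not when the 29M replicate 1 or the 29M replicate 2 was left out.

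The probes for Serpina1e gave different answers. The dimmer one read 7.23, 7.24, 7.24 and 7.30 at 3 months and 8.56, 8.62, 8.52 and 8.03 at 29 months, a difference of 1.18 (SE 0.13, adjusted p = 0.00367). On the brighter one the ages overlapped, with 8.40, 8.28, 8.11 and 8.43 against 8.72, 8.71, 8.64 and 8.30, and the difference of 0.29 (SE 0.12, adjusted p = 0.256) was not called. Which transcripts of this family each probe binds could not be worked out here, because no probe sequences were used. Whether the calls of these 4 near-identical genes are independent of each other was not tested.

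The 3M arrays were close together in this family and the 29M arrays were not. Over the 6 called Serpina1 probes, the 3M arrays deviated from the 3M mean by no more than 0.22. The 29M replicates 1, 2 and 3 lay 0.92 to 1.67 above that mean and replicate 4 lay 0.30 to 0.92 above it. In all 7 probes of these 4 genes replicate 4 was the lowest of the 29M arrays. These probes read the same 4 samples and may bind the same transcripts, so they are not separate observations. The low reading was not particular to this family. Among other called genes, replicate 4 was also the lowest old array for Klk6, Cst7, Ctss and Serpina3n, but not for St14, Casp1 or Slpi. The fold of the called probes was between 1.80 and 2.65 as measured. The 4 genes were called in each of the 19 alternative ways of processing or sample selection that were run.

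Serpina1f was not called. It read 9.93, 9.97, 9.72 and 9.85 at 3 months and 9.90, 9.88, 9.84 and 9.90 at 29 months, and the difference was 0.01 (SE 0.08, adjusted p = 0.954). The arrays of the old group lay inside the range of the young.

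**Figure D2:**
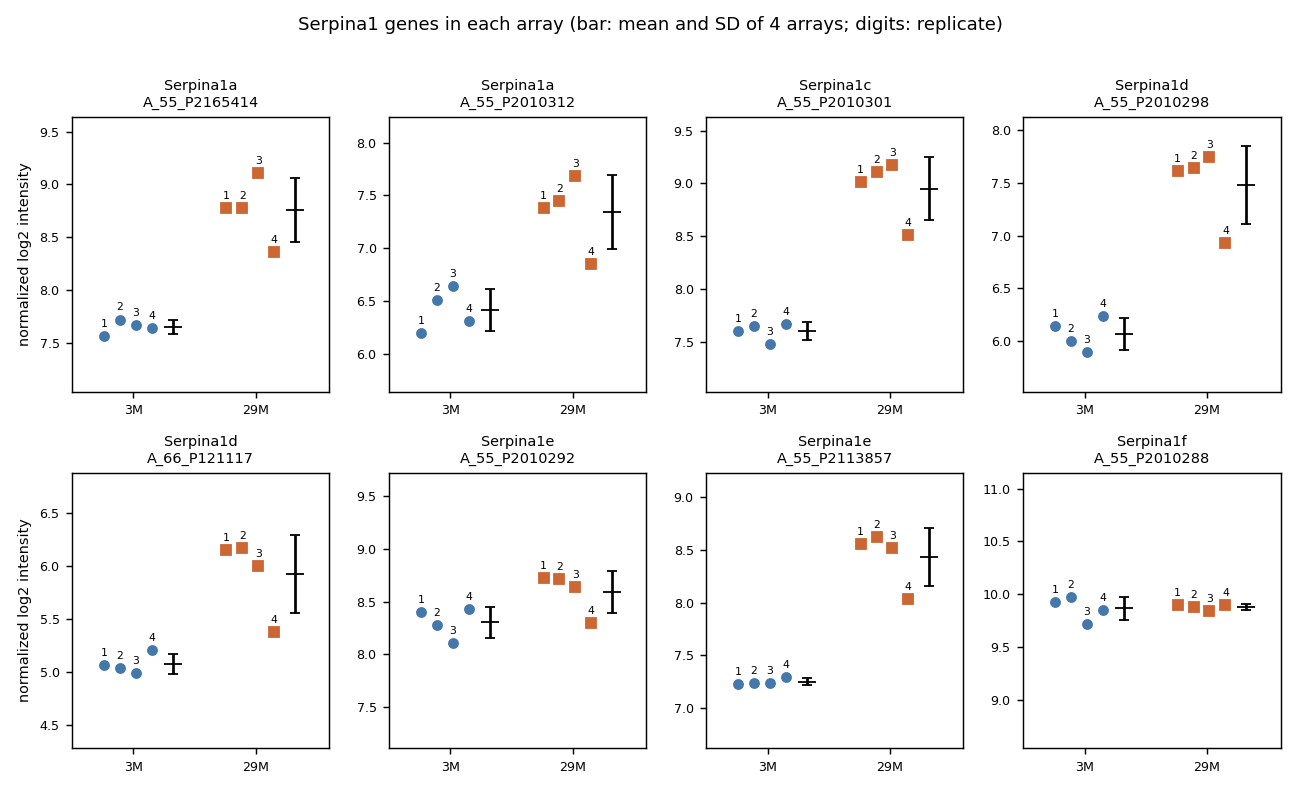
Normalized log2 intensity (y axis, each panel spanning the same number of units) of the 8 Serpina1 family probes in each 3M array (blue circles) and 29M array (orange squares), with replicate numbers and the mean and SD of 4 arrays in black. In 6 panels the ages are apart, with 29M replicate 4 the lowest of its group, while the brighter Serpina1e probe and Serpina1f overlap.

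Alpha-1-antitrypsin is best known as a product of hepatocytes, so markers of that cell were examined beside it, with the other cell types that a dissected hippocampus can hold. Of the 10 hepatocyte markers only Cyp2e1, a cytochrome P450 that other tissues also make, was called, with a difference of 1.09 (SE 0.18, adjusted p = 0.0238). Alb and Apoa1 were above background on no array, while 4 of the 10 genes had a probe above background on all 8 arrays. Of the list 7 genes had a difference above 0, and the median was 0.04. The hepatocyte markers summed to between 24200 and 29900 intensity units at 3 months and between 25100 and 29400 at 29 months. Over the whole array 1.84% of the genes were called higher and 0.892% lower, and 13741 of 26037 named probes had a difference above 0. Of 10 microglial markers Ctss and Trem2 were called, and 9 had a difference above 0. The median of this list was 0.35, against 0.01 over all named genes. Its sum, in which bright members weigh most, was between 370000 and 419000 in 3M arrays. In 29M arrays that sum was between 431000 and 461000, with no overlap. Cd3d and Cd8a were called among the 11 lymphocyte markers (0.96 and 0.71), and the summed level of that list overlapped between the ages (26100 to 28500 and 24700 to 31000). Gfap was called among 10 astrocyte markers, whose sums overlapped (401000 to 487000 and 439000 to 489000). The part of these cells in the Serpina1 differences was not tested, and in tissue RNA fewer cells of a type and less RNA per cell cannot be told apart. Among 8 oligodendrocyte markers Ermn was called on its dimmer probe (0.76, SE 0.15, adjusted p = 0.0452) and not on its brighter one (-0.24, SE 0.11), and among 6 precursor markers Gpr17 fell by 0.99 (SE 0.21, adjusted p = 0.0562). The sums of both lists overlapped between the ages (555000 to 625000 and 574000 to 641000 for oligodendrocytes, 62500 to 77500 and 67100 to 74500 for precursors). None of the markers of endothelium, mural cells, meninges, choroid plexus, ependyma, red blood cells or mast cells and granulocytes was called. The meningeal sum was 55000 to 76300 at 3 months and 49400 to 102000 at 29 months. Differences of these 10 genes ran from -0.58 (Col1a1) to 0.67 (Ogn), with 6 above 0. At 29 months both Col1a1 and Ogn read highest in replicate 3 and lowest in replicate 4, as did Serpinf2 and Serpind1. The sums of choroid plexus (341000 to 484000 and 377000 to 465000) and ependyma (20100 to 54200 and 33700 to 37700) also overlapped. The part of these cells in the serpin differences was not tested.

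Serpinf2, the alpha-2-antiplasmin that inactivates plasmin, was also called higher at 29 months. It read 8.96, 9.04, 8.91 and 8.93 at 3 months and 9.48, 9.76, 9.86 and 9.20 at 29 months. The groups stood apart and the 29M replicate 4 was the lowest of its age. The difference of 0.62 (SE 0.14, adjusted p = 0.0644) was 1.53-fold and was 0.57, 0.72 and 0.56 within slides. It was called in 10 of 19 alternatives and lost with slide as a fixed block (0.61, adjusted p = 0.125), with the replicate block (0.62, adjusted p = 0.134), at an adjusted p under 0.05, and without 3M replicate 2, 3 or 4 or 29M replicate 1, 2 or 3, with adjusted p-values between 0.0196 and 0.165 over all of them.

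Serpind1, heparin cofactor II, an inhibitor of thrombin, did not pass the test. It read 11.24, 11.15, 11.16 and 10.84 at 3 months and 11.83, 11.93, 12.44 and 11.16 at 29 months, for a difference of 0.75 (SE 0.23, adjusted p = 0.154). The 29M replicate 4 lay within the young group and the other old arrays above it. Without the 29M replicate 4 the difference was 0.97 (adjusted p = 0.0464), and with array weights it was 0.79 (adjusted p = 0.0371). Serpinc1, antithrombin, was above background on no array and had a difference of -0.06 (SE 0.08).

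The serpins best known from the brain itself gave small differences. Serpini1, neuroserpin, read 16.06, 15.81, 16.44 and 15.82 at 3 months and 15.99, 15.90, 16.15 and 16.24 at 29 months. The ages overlapped, and the difference was 0.04 (SE 0.15, adjusted p = 0.923). A dimmer probe of Serpini1 read between 9.65 and 11.03 at 3 months and between 11.06 and 11.54 at 29 months. All its old arrays were above all young ones, with a wide spread at 3 months, and the difference of 0.68 (SE 0.28, adjusted p = 0.257) was not called. Serpine2, protease nexin-1 of glia, read 12.59, 12.91, 12.75 and 12.68 and then 13.03, 13.02, 12.76 and 12.88, a difference of 0.19 (SE 0.10, adjusted p = 0.384). The ages overlapped. Serpinf1, pigment epithelium-derived factor, which is not an inhibitor, differed by 0.00 (SE 0.12) on its brighter probe and by 0.03 (SE 0.12) on the other.

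Serpinh1 is the collagen chaperone of the endoplasmic reticulum, also without inhibitor activity. It read 12.20, 13.32, 13.17 and 13.16 at 3 months and 13.10, 13.20, 12.75 and 12.31 at 29 months. The 3M replicate 1 and the 29M replicate 4 were the low arrays, the groups overlapped, and the difference was -0.12 (SE 0.27, adjusted p = 0.858). Within the slide that held both of those arrays it was 0.33, and in the others -0.12 and -0.06. Serpini2 differed by 0.32 (SE 0.35), where 29M replicate 4 read 7.42 and the other 29M arrays 5.65 to 5.86.

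**Figure D3:**
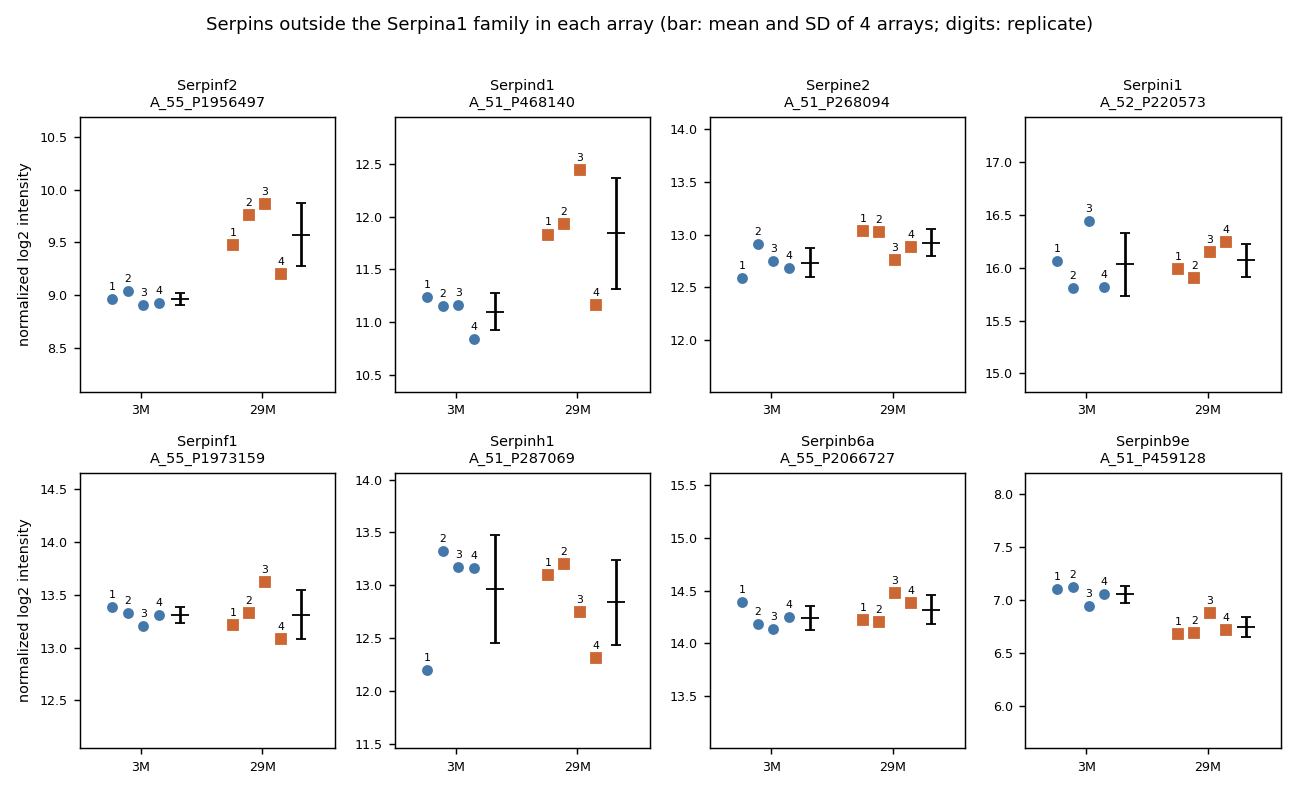
Normalized log2 intensity (y axis, each panel spanning the same number of units) of 8 serpins outside the Serpina1 family in each 3M array (blue circles) and 29M array (orange squares), with replicate numbers and the mean and SD of 4 arrays in black. The ages are apart for Serpinf2, with the old arrays higher, and for Serpinb9e, with the old arrays lower, 29M replicate 4 of Serpind1 lies with the young arrays, and the other 5 overlap.

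Clade B was the largest set, with 27 genes and 31 probes, and none was called in either direction. Differences of its genes ran from -0.41 to 0.49 with a median of 0.04, and 10 of the genes were above background on no array. Serpinb1c differed by 0.49 (SE 0.43, adjusted p = 0.605). It was called higher in 1 alternative, without 3M replicate 2, which read 8.93 where the other young arrays read 6.59 to 7.30. Serpinb6a, an inhibitor that stays inside the cell, read 14.39, 14.18, 14.14 and 14.25 at 3 months and 14.22, 14.20, 14.48 and 14.38 at 29 months (difference 0.08, SE 0.10). Its relative Serpinb6c read 13.53, 13.37, 13.47 and 13.54 and then 13.64, 13.76, 13.92 and 13.73. All old arrays of Serpinb6c were above all young ones, but the difference was 0.29 (SE 0.09, adjusted p = 0.148) and a dimmer probe gave 0.08 (SE 0.09). Serpinb6b differed by 0.01 (SE 0.14).

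Serpinb9e was the 1 serpin whose 29M arrays were all below the 3M arrays. It read 7.10, 7.12, 6.94 and 7.06 at 3 months and 6.68, 6.69, 6.88 and 6.72 at 29 months, a difference of -0.32 (SE 0.08, adjusted p = 0.107). This met neither the threshold on p nor that on size. On a dimmer probe, above background on no array, the ages overlapped and the difference was -0.10 (SE 0.08). Serpinb9, which protects cells from granzyme B, differed by 0.04 (SE 0.14) and Serpinb8 by -0.17 (SE 0.15). Serpinb1a, the leukocyte elastase inhibitor, read 12.27, 12.18, 11.50 and 12.74 and then 12.67, 12.73, 13.00 and 12.10, so the ages overlapped (difference 0.45, SE 0.26, adjusted p = 0.422). Serpinb5 (maspin) differed by -0.41 (SE 0.21, adjusted p = 0.357), with 3 of 4 young and 1 of 4 old arrays above background. Serpinb2 was above background on no array.

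The Serpina3 genes are the mouse copies of antichymotrypsin. With Serpina3n left out, 7 of them were matched by 8 probes and none was called, with differences from -0.36 for Serpina3f to 0.14 for a dim probe of Serpina3a. Serpina3b read 9.25, 9.34, 9.20 and 9.63 at 3 months and 9.36, 9.12, 9.50 and 9.44 at 29 months, and its ages overlapped throughout. Serpina3m differed by -0.22 (SE 0.16), Serpina3j by -0.32 (SE 0.18) and Serpina3c by 0.13 (SE 0.09). For Serpina3f the 3M replicate 1 read 8.47 and the other young arrays 6.75 to 7.06, which overlapped the old ones (6.75 to 7.12). Serpina3a and Serpina3k were above background on no array. For comparison, Serpina3n, the last gene of the same run, had a difference of 0.96 (SE 0.20, adjusted p = 0.0524).

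The other 8 genes of clade A, with 10 probes, also held no call. Serpina10, the inhibitor that works with protein Z, differed by 0.01 (SE 0.09) and on a dimmer probe by -0.03 (SE 0.09). Serpina6, the corticosteroid carrier of plasma, differed by 0.47 (SE 0.24, adjusted p = 0.357), with the 29M replicate 4 at 7.43 and the other old arrays at 6.16 to 6.59. A dimmer probe of Serpina6, above background on no array, gave 0.05 (SE 0.11). Serpina12 (vaspin) differed by -0.63 (SE 0.48, adjusted p = 0.542). The 3M replicate 2 read 7.63 and was the only array above background, and within the slide that held it the difference was -2.43, against 0.08 and -0.14 in the others. Serpina5 and Serpina7, the protein C inhibitor and the thyroxine carrier, were above background on no array.

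Along chromosome 12 the Serpina genes lie in 1 run of 28 genes and pseudogenes, and the called Serpina1 copies are neighbours in it. In the order Serpina1f, Serpina1b, Serpina1d, Serpina1a, Serpina1c, Serpina1e and Serpina11, the outer genes Serpina1f and Serpina11 had differences of 0.01 and -0.43 (SE 0.25, adjusted p = 0.427), and Serpina1b had no matched probe. The 4 genes between them were those called.

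**Figure D4:**
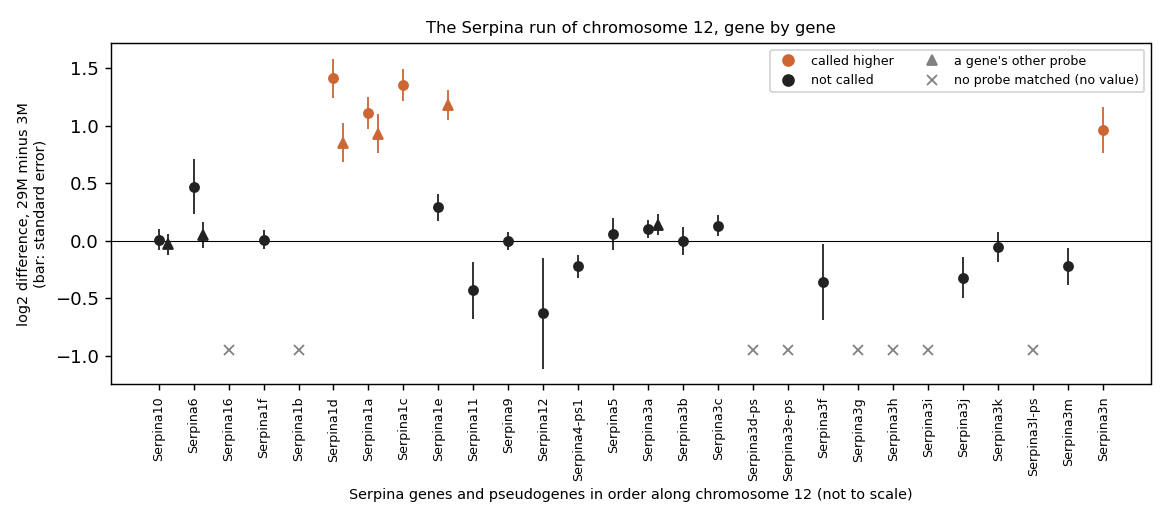
Difference between the ages (y axis, log2, 29M minus 3M, with the standard error) of each Serpina gene in its order along chromosome 12, not to scale, with a gene's other probes as triangles and crosses for genes without a matched probe. The called genes (orange) are 4 neighbouring Serpina1 copies and, at the other end, Serpina3n.

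Proteases and related genes, among them targets of serpins, were read from a list of 32 genes, of which 31 were matched. Of these 4 rose, none fell, and the list's median was 0.07. Over the whole array 1.84% of the genes were called higher and 0.892% lower, and these shares also stand beside the lists that follow. Klk6, a kallikrein of oligodendrocytes, read 9.09, 9.19, 8.23 and 10.19 at 3 months and 12.57, 12.87, 12.74 and 10.82 at 29 months. All old arrays were above all young ones, and the difference was 3.08 (SE 0.50, adjusted p = 0.0232). Ctss, the cathepsin of microglia, rose by 0.83 (SE 0.12, adjusted p = 0.0136), St14 (matriptase) by 0.67 (SE 0.11, adjusted p = 0.0242) and the inflammasome protease Casp1 by 0.98 (SE 0.23, adjusted p = 0.0718). Casp1 kept its call in 8 of 19 alternatives.

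Proteases of the plasminogen system did not pass the test. Plat, tissue plasminogen activator, differed by 0.14 (SE 0.11), and Plg, the precursor of plasmin, by 0.15 (SE 0.18) with 1 of 4 young and 3 of 4 old arrays above background. Plau, urokinase, read 7.64, 7.78, 7.82 and 8.32 at 3 months and 7.07, 7.63, 7.58 and 7.55 at 29 months. Its old arrays were all lower than its young ones, by 0.43 in the mean, with an adjusted p of 0.243. The neuronal proteases Prss12 (neurotrypsin) and Klk8 (neuropsin) differed by -0.19 (SE 0.10) and -0.20 (SE 0.12), cathepsin Ctsl by 0.28 (SE 0.09, adjusted p = 0.175) and F2, prothrombin, by -0.35 (SE 0.23) with 3 of 4 young arrays and none of the old ones above background.

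Receptors and binding partners of serpins numbered 20, all matched, and none was called (median 0.08). Plaur, the urokinase receptor, came closest. It read 7.97, 7.88, 8.25 and 7.94 at 3 months and 8.70, 8.53, 8.27 and 8.48 at 29 months, and its difference of 0.49 (SE 0.12, adjusted p = 0.0818) missed the threshold on size alone. It was called in 4 of 19 alternatives. Lrp1, which clears serpin complexes with their protease, differed by 0.07 (SE 0.08) and Vtn (vitronectin), an adhesion protein of plasma and matrix, by 0.27 (SE 0.12, adjusted p = 0.297).

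Protease inhibitors that are not serpins gave 2 calls of 24 matched genes, none of them lower, and a median of 0.09. The share of all genes called higher was 1.84%. Cst7 (cystatin F), an inhibitor of cathepsins, read 6.96, 6.98, 6.31 and 6.74 at 3 months and 9.95, 9.93, 9.66 and 8.32 at 29 months, a difference of 2.72 (SE 0.34, adjusted p = 0.0071). Its groups were far apart, and replicate 4 was again the lowest of the old arrays. Slpi, the secreted inhibitor of leukocyte proteases, rose by 0.80 (SE 0.20, adjusted p = 0.0948) and kept its call in 8 of 19 alternatives. Among 22 matched collagens and genes of collagen processing, Col2a1 rose by 0.71 (SE 0.09, adjusted p = 0.0071), none fell, and the median was -0.02.

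**Figure D5:**
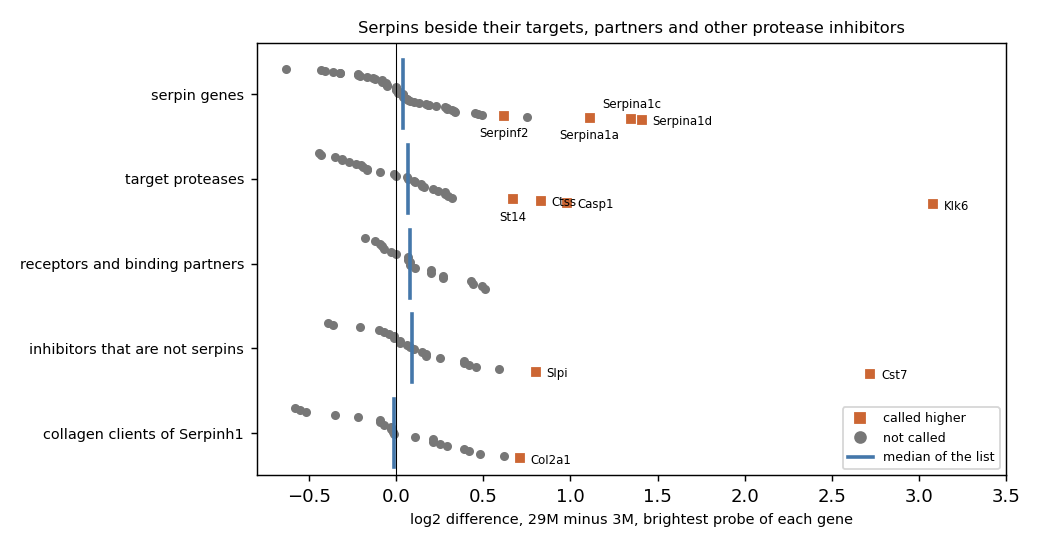
Difference between the ages (x axis, log2, 29M minus 3M) of the brightest probe of each serpin gene and of each gene in 4 lists, with called genes as labelled orange squares and the median of each list as a blue line. The medians lie between -0.02 and 0.09, and the called genes lie at 0.62 or above. Serpina1e is drawn by its brightest probe (0.29), which was not called.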

How the data were processed

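Hippocampal RNA of 4 samples at 3 months and 4 at 29 months was measured on 1-colour arrays, grouped by the sample titles. For each array the authors deposited scanner intensities (linear scale, before any normalization), which per the file headers came from Agilent Feature Extraction 10.7.3.1. The study's methods name another version, and the headers were followed. The deposited table of the series also holds intensities, but these matched the scanner's mean background values and not its signals (tolerance 0.001), with 7 of 8 columns matching the array of another sample, so it was not used as expression.

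Control spots and outlier spots (127 to 190 per array) were left out. Median spot intensity, used because the mean was not in the files used here, was normalized by a variance stabilising model (1 offset and 1 scale per array, trimming quantile 0.9, 7 iterations) written for R 4.3.3, since the original package was not installed. The fitted values are close to log2 of the intensity minus an offset of 5.08 to 14.1 scanner units, which lies below the local background and understates differences of dim probes. Spots of 399 repeated probes were averaged. A linear model for age was fitted in limma 3.58.1 with eBayes to 39408 probes with at least 3 usable arrays per group, following the study's methods, and tested on simulated data.

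Probes were named through RefSeq accessions (GRCm38.p6). Symbols were found for 26055 of 39429 probes (66.1%). Promoters of the Serpina1 copies were aligned with free end gaps. Named genes were those called, those with separated groups on a probe above background, and set members of each family. The result of 1 gene is not reported here, and the counts leave it out. Members and lists were chosen with earlier results of these data known. In all, 19 alternatives were run, covering input, normalization, outliers, dim probes, slide, replicate number, variance prior, array weights, threshold and each array left out.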

Additional observations from a re-analysis of the deposited data

Results flagged for a closer look

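In 7 of 74 groups of 4 arrays (37 probes of the serpins named here, at each age) 1 array lay far from the other 3, by the ratio of its gap to the group's range, where chance gives about 1 in 20, or 3.70. For Serpinh1 the 3M replicate 1 read 12.20 and the others 13.16 to 13.32 (ratio 0.859). For Serpina12 the 3M replicate 2 read 7.63 and the others 5.19 to 5.44 (0.896), and at 29 months replicate 4 read 5.34 against 5.18 to 5.20 (0.852), a spot not above background. Serpini2 read 7.42 in the 29M replicate 4 and 5.65 to 5.86 in the other old arrays (0.880). Serpina3j read 6.96 in the 3M replicate 1 and 6.17 to 6.24 in the other young arrays (0.911). In the 29M replicate 4, Serpina1d read 6.93 where the other old arrays read 7.61 to 7.74 (0.840), and the dimmer probe of Serpina1e read 8.03 where they read 8.52 to 8.62 (0.833).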

How the results depend on the processing

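The count of serpin genes called higher was 5, between 4 and 7 over the 19 alternatives and between 4 and 6 with 1 array left out, and none was called lower in any of them. The median difference was between 0.01 and 0.05. No called probe changed direction. Serpina1a, Serpina1c, Serpina1d and Serpina1e were called each time, while Serpinf2 was lost, among others, at an adjusted p under 0.05. Array weights added Serpind1 and, on its dimmer probe only, Serpini1 (7 genes), and leaving out 29M replicate 4 added Serpind1. Without 3M replicate 2, Serpinb1c was called and Serpinf2 was not. Deviations of arrays with the same replicate number correlated at -0.24, 0.21, -0.23 and 0.07. These few values cannot decide whether the samples were paired by number. With the replicate block 4 genes were called, the Serpina1 copies. Intensities near background give bounds at most.
Of the lists, proteases and related genes gave 2 to 4 calls higher over the alternatives (2 with the replicate block). Receptors and binding partners gave 0 to 3, with 3 under array weights and 2 without 3M replicate 3. They gave 1 with slide as a fixed block or without 3M replicate 1 or 29M replicate 3. Inhibitors other than serpins gave 1 to 3, and collagens and genes of collagen processing 1 to 2. Calls lower were 0 in all of these except 1 inhibitor without 29M replicate 3. Scaling the processed signals to the 75th percentile moved 5 dim serpins that were not called: Serpina12 to -1.69, Serpina3j to -0.81, Serpina5 to -0.32, Serpinb5 to -1.18 and Serpinc1 to -0.28.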
